A study of Mus musculus with 8 samples.

Results

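In nuclei of the mouse cerebral cortex, 3 coding genes and the noncoding RNA genes annotated within their spans were followed as pairs. The pairs were Thsd7a with Gm44129, Oxr1 with Gm26854 and Ntrk2 with 4930415C11Rik. They were found by symbol and make up 6 of the 32285 genes counted. Among the genes counted, GENCODE M21 places 1658 antisense or long intergenic noncoding genes inside a single coding gene on the opposite strand. The 3 pairs are thus a small part of a common arrangement. The pairs were selected on the comparison of genotypes: an earlier paired analysis of the same libraries had called Gm44129, Thsd7a and Gm26854 in interneurons derived from the medial ganglionic eminence (MGE) and 4930415C11Rik in interneurons derived from the caudal ganglionic eminence (CGE) and, by another tool, in superficial excitatory neurons. Differences of the 6 genes between genotypes are therefore given as values without a test.

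The 8 libraries came from 8 C57BL/6J mice at postnatal day 25, with 4 wild type (WT) and 4 heterozygous for Chd8 (Chd8het), 2 males and 2 females in each genotype. Animals were matched within litter and sex, the medial part of the cortex was taken off, the tissue was flash-frozen, and nuclei were isolated from all 8 samples in parallel for droplet libraries with a 3' kit. Replicate 1 of each sex and genotype carried a single index and replicate 2 a dual index, so each index type holds 2 WT and 2 Chd8het libraries. The chromatin remodeller gene Chd8 is the gene altered in the study. Levels are given as CPM, the count of unique molecular identifiers (UMIs) per mega-UMI of scaled library size, and 4 values of a genotype always stand for the first and second male and then the first and second female. Over all kept nuclei Chd8 was at 76.2, 82.7, 79.6 and 80.5 CPM in WT and at 76.8, 87.9, 77.3 and 76.3 CPM in Chd8het. The 2 groups overlap, so the counts do not show the heterozygous state. The allele was not given in the sources used here, and 3' counts that lie outside a deleted part would not check it.

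The libraries held 69503598 to 98132783 UMIs, and 82168 of 97772 barcodes were kept as nuclei, 8022 to 11663 per library. Marker genes alone assigned 39896 nuclei (48.6%, and 41.2% to 53.5% by library) to 13 cell types with at least 30 nuclei in every library. Among 81364 distinct barcode strings, 796 (0.98%) occurred in more than 1 library. The types were astrocytes, oligodendrocytes, oligodendrocyte precursors (OPC), microglia, mural and fibroblast cells, 4 excitatory types (L2/3 and L4/5 intratelencephalic, IT, L5/6 near-projecting, NP, and L6 corticothalamic, CT) and 4 interneuron types (Pvalb, Sst, Vip and Lamp5). MGE interneurons as a whole held 380 to 548 nuclei per library and CGE interneurons 174 to 245.

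Thsd7a encodes a large membrane protein with thrombospondin type 1 repeats that was studied first in endothelial migration. Oxr1 encodes a protein with a TLDc domain that protects neurons from oxidative damage. Ntrk2 encodes TrkB, the receptor for brain-derived neurotrophic factor, which is made as a full-length tyrosine kinase in neurons and, chiefly in astrocytes, as a truncated form without the kinase. Noncoding RNAs transcribed from within a host gene on the opposite strand can depend on the same open chromatin as the host, can start from a shared promoter that fires in both directions, or can be transcribed on their own. No function of Gm44129, Gm26854 or 4930415C11Rik is assumed here.

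On GRCm38, Thsd7a (ENSMUSG00000032625) lies on the minus strand at chr6:12311610-12749410, and Gm44129 (ENSMUSG00000107422, a long intergenic noncoding RNA of 4 exons) on the plus strand at chr6:12608996-12658956. Gm44129 sits in intron 1 of the 2 long Thsd7a transcripts. The other 4 of the 6 Thsd7a transcripts start downstream of it. Oxr1 (ENSMUSG00000022307) lies on the plus strand at chr15:41447482-41861048, and Gm26854 (ENSMUSG00000097232, antisense, 4 exons) on the minus strand at chr15:41758060-41788911. Of 16 Oxr1 transcripts 7 span Gm26854, with the noncoding gene in their intron 1 or 3, and 9 start beyond it. The start of Gm26854 is 30 bases from the start of the nearest of those, Oxr1-206, so both are read away from one short stretch. Ntrk2 (ENSMUSG00000055254) lies on the plus strand at chr13:58806569-59133970, and 4930415C11Rik (ENSMUSG00000114437, antisense, 2 exons) on the minus strand at chr13:59054896-59084093. Only 2 of 10 Ntrk2 transcripts reach across 4930415C11Rik, and the other 8 end before it. No exon of a noncoding gene overlaps an exon of its host. Whether counting used strand and intron reads was not given in the sources used here, and without strand the reads of host introns and of the noncoding gene cannot be told apart.

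**Figure D1:**
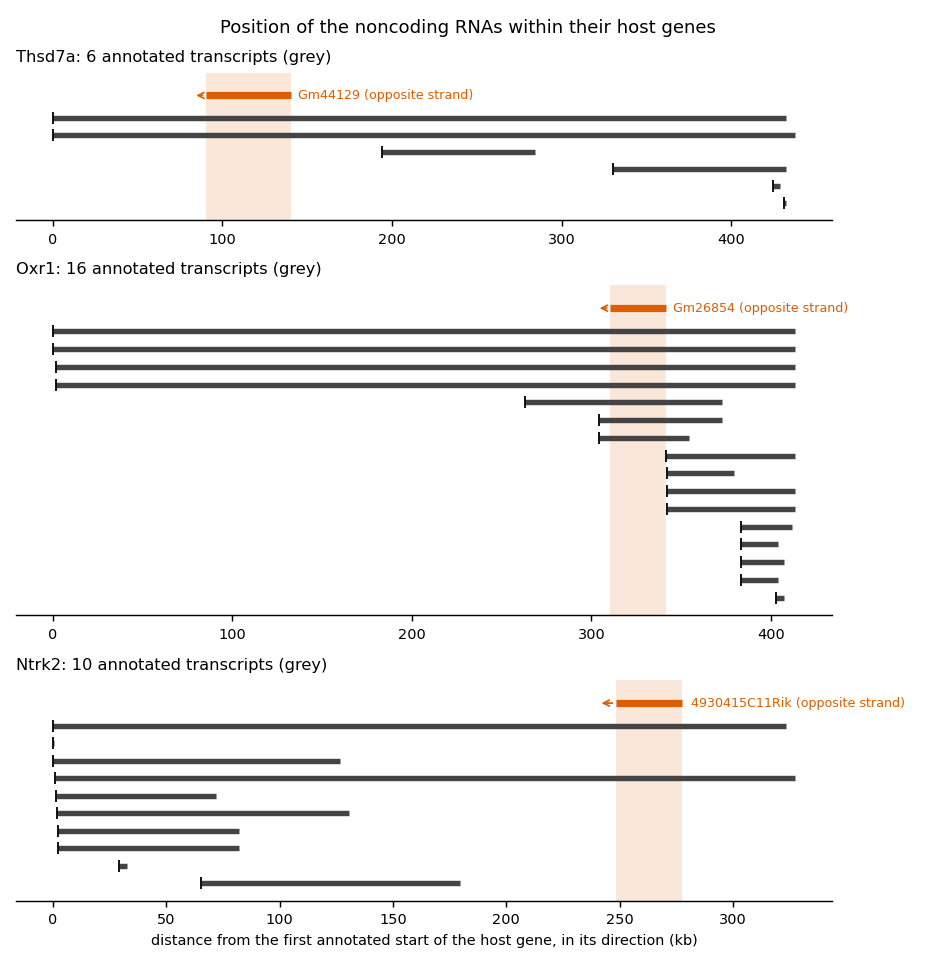
Transcripts of the 3 host genes (grey) and the span of each noncoding gene (coloured), plotted as distance in kb from the first annotated host start. Gm44129 and Gm26854 lie in early introns of long host transcripts, whereas 8 of 10 Ntrk2 transcripts end before 4930415C11Rik.

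The kit primes on poly(A), so the annotated 3' ends of the noncoding RNAs are shown. Where the counted reads lie within these genes was not examined. Capitals mark AATAAA, the usual signal for cleavage and poly(A) addition, and the sequences are GENCODE M21 transcript ends of 100 bases.
Gm44129, chr6:12658857-12658956, plus strand: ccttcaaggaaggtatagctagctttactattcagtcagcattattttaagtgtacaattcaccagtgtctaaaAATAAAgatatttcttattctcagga
Gm26854, chr15:41758060-41758159, minus strand: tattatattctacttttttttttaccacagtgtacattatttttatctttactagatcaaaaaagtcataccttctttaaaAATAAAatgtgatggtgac
4930415C11Rik, chr13:59054896-59054995, minus strand: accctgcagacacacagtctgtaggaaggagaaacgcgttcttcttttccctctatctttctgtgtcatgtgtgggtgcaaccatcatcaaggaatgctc
The motif begins 26 bases from the annotated end of Gm44129 and 19 bases from that of Gm26854, and these letters are not in the last 100 bases of 4930415C11Rik. On the transcribed strand they stand in the last 100 bases of 4081 of 12737 noncoding transcripts (32.0%), so their presence is common.

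The first 100 bases of Gm26854 are shown because they face the Oxr1-206 start, with CG dinucleotides in capitals.
Gm26854, chr15:41788812-41788911, minus strand: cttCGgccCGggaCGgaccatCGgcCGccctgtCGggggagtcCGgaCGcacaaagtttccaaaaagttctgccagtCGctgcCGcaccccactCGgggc
They hold 11 CG. The median over the same 12737 noncoding transcripts is 2, and 3.37% have at least as many. The starts of Gm44129 and 4930415C11Rik hold 3 and 1.

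Thsd7a and Gm44129 both had their highest mean in Sst interneurons, with Vip interneurons, OPC and Pvalb interneurons next, and both had their lowest mean in L6 CT neurons. In Sst nuclei Thsd7a was at 737.3, 1372.6, 880.5 and 1076.3 CPM in WT and at 806.2, 973.3, 788.4 and 818.1 CPM in Chd8het. Gm44129 was at 70.4, 183.5, 41.1 and 98.5 CPM and at 51.9, 126.5, 36.2 and 61.7 CPM in Chd8het. The 2 male dual-indexed libraries were the highest for Gm44129 in both genotypes. Means over the 8 libraries (± SD, n = 8) were 931.6 ± 209.3 CPM for Thsd7a in Sst, 752.3 ± 158.9 in Vip, 584.8 ± 88.2 in OPC, 477.2 ± 87.9 in Pvalb and 298.3 ± 46.6 in L4/5 IT. In the other 8 types Thsd7a ran from 282.8 ± 38.4 in oligodendrocytes down to 26.8 ± 5.28 in L6 CT. Gm44129 fell along a like order, from 83.7 ± 50.4 CPM in Sst over 55.3 ± 12.6 in Vip, 45.8 ± 20.8 in OPC and 38.5 ± 13.5 in Pvalb to 1.45 ± 0.56 in L6 CT, where the lowest library held 5 UMIs.

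Oxr1 and Gm26854 were highest in Sst, Pvalb and Vip interneurons and in the L4/5 IT and L6 CT neurons. Oxr1 was at 1832.5 ± 463.1 CPM in Sst, 1728.6 ± 215.5 in Pvalb, 1229 ± 215.3 in L6 CT, 1199 ± 187.8 in L4/5 IT and 1174.8 ± 361.8 in Vip. It was at 667.8 ± 55.6 CPM in L2/3 IT and lowest in mural and fibroblast cells, at 267.6 ± 60.2. Gm26854 was at 155.9 ± 100.9 CPM in Sst, 144.4 ± 46.8 in Pvalb, 105.6 ± 80.2 in Vip, 80.1 ± 33.3 in L6 CT and 77.6 ± 35.7 in L4/5 IT, and its lowest mean was again in mural and fibroblast cells, at 17.0 ± 26.8. That mean rests on 18 UMIs in all, with 0 in 3 libraries and 79.3 CPM in Chd8het female 2. By mean log2 CPM Pvalb rather than Sst was its highest type. Lamp5 interneurons were lower than the other 3 interneuron types in mean level of both genes, with 411.0 ± 125.5 CPM of Oxr1 and 24.2 ± 14.1 of Gm26854.

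Ntrk2 and 4930415C11Rik had different orders of types. Ntrk2 had its highest mean in astrocytes, where the 8 libraries held 1245.2, 1632.4, 840.9 and 1344.8 CPM in WT and 1178.1, 1685.3, 1071.4 and 1202.8 CPM in Chd8het. Its mean was 1275.1 ± 279.4 CPM there, 1116.6 ± 182.8 in Lamp5, between 782.8 and 1052.5 in the other 7 neuron types, 539.6 ± 101.0 in OPC and 220.5 to 278.8 in microglia, oligodendrocytes and mural and fibroblast cells. 4930415C11Rik was highest in Lamp5, at 166.2 ± 55.3 CPM, and lay between 88.1 and 140.0 in the other 7 neuron types. In astrocytes the same 8 libraries held only 29.3, 44.3, 38.3 and 51.2 CPM of 4930415C11Rik in WT and 24.1, 24.6, 18.8 and 53.3 in Chd8het. Astrocytes thus had the highest mean of the host, although Lamp5 was higher in WT female 1 (895.6 CPM) and L4/5 IT in Chd8het male 2 (1978.0 CPM). They were 1 of the 5 non-neuronal types, all of which had a lower mean of 4930415C11Rik than any neuron type.

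**Figure D2:**
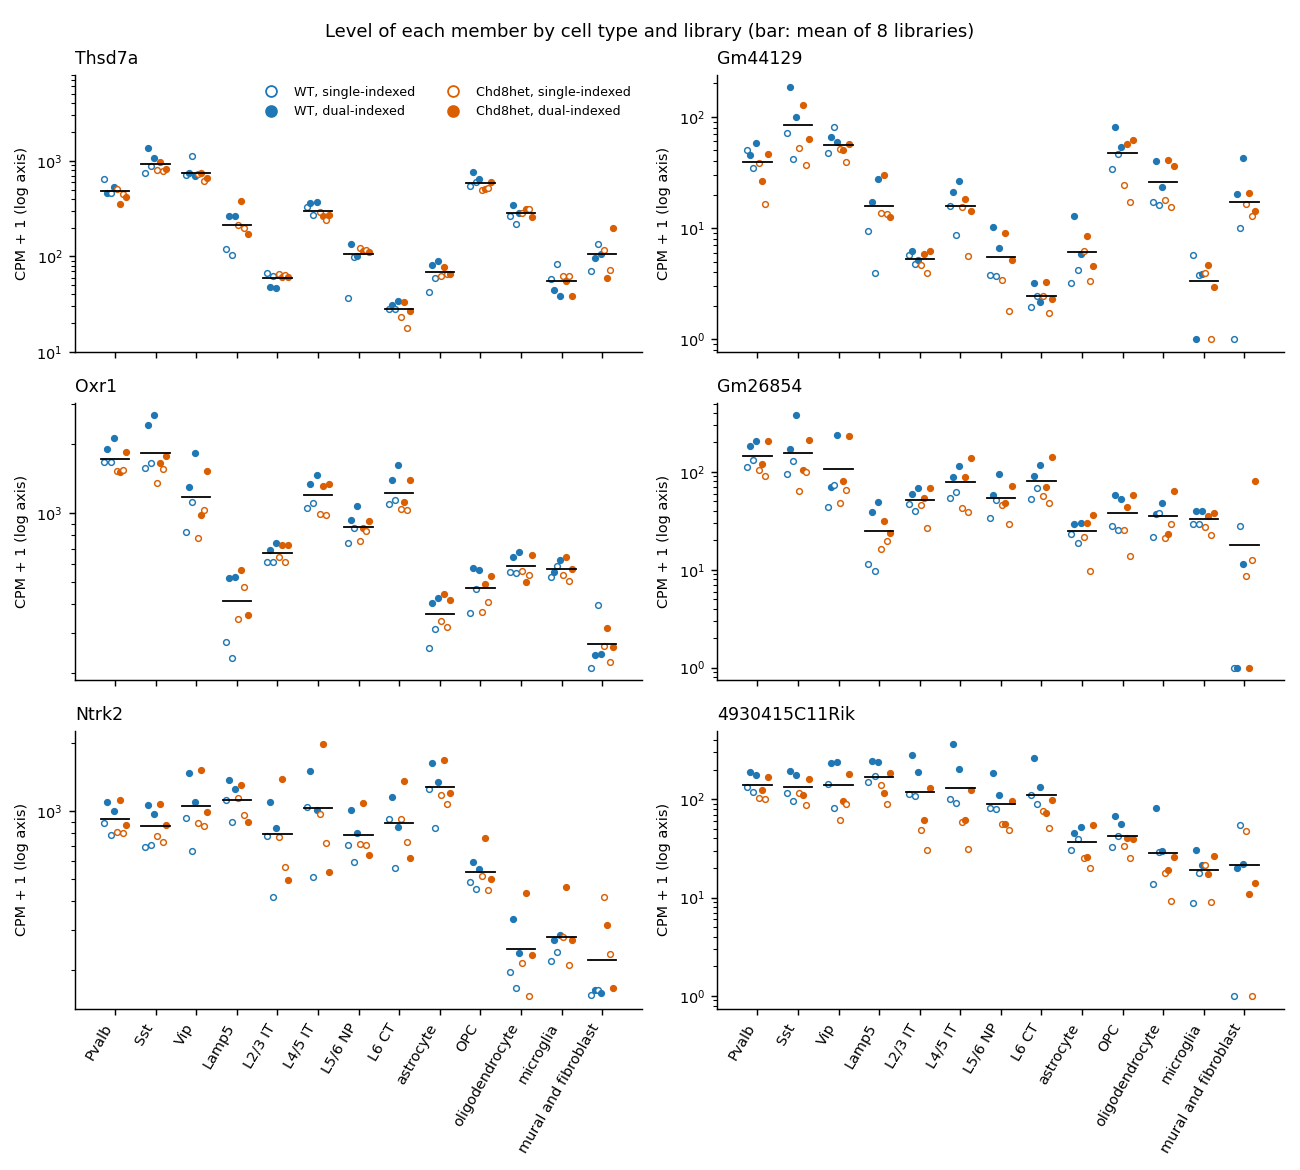
Level of each of the 6 genes in 13 cell types (CPM + 1, log axis), with a point for each of the 8 libraries and a bar at their mean. Thsd7a and Gm44129 peak together in Sst interneurons, and astrocytes have the highest mean of Ntrk2 (1275.1 CPM) but are low for 4930415C11Rik (35.5 CPM).

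Neighbouring types in these orders were compared within libraries by exact two-sided sign-flip permutation tests, 72 in all. The orders come from the same libraries, so the direction of each step was set by them. In 10 of them the higher type was higher in 8 of 8 libraries, at p = 0.00781, the smallest this permutation test can give. After Benjamini-Hochberg (BH) adjustment over the 72 none passed 0.05 (smallest adjusted p = 0.0563, exact permutation), but with this floor on p a pass needed 12 steps seen in all 8 libraries, so the adjusted values do not show that neighbours are alike. The steps seen in all 8 libraries included Pvalb over L4/5 IT for Thsd7a (log2 difference 0.67 ± 0.22, SD), Pvalb over L6 CT for Oxr1 (0.50 ± 0.09), L2/3 IT over OPC for Gm26854 (0.51 ± 0.32), OPC over microglia for Ntrk2 (0.97 ± 0.16) and L5/6 NP over OPC for 4930415C11Rik (1.01 ± 0.33). With a stricter marker gate, or without nuclei of high UMI count, 12 of the comparisons passed the adjustment.

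Across the 13 types the mean log2 levels of host and noncoding RNA had a Pearson r of 0.968 for Thsd7a and Gm44129, 0.982 for Oxr1 and Gm26854 and 0.811 for Ntrk2 and 4930415C11Rik. In single libraries these ranged from 0.828 to 0.970, 0.805 to 0.982 and 0.646 to 0.866. The types share libraries and depth, so the coefficients are descriptions. Within the 8 neuron types alone r was 0.984, 0.978 and 0.798. Among 740 overlapping pairs on opposite strands with both genes at 5 CPM or more in at least 1 type, the median r was 0.911 and the quartiles were 0.780 and 0.962, which places the first 2 pairs above the upper quartile and the Ntrk2 pair between the lower quartile and the median.

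Of 15951 genes compared over the 13 types, Gm44129 was the gene most like Thsd7a and Thsd7a the most like Gm44129. Gm26854 and Oxr1 were each other's nearest gene as well. The next in likeness were Serpinc1 (r 0.851) and 8030451O07Rik (0.827) for Thsd7a, Zfp458 (0.865) and Gfpt2 (0.855) for Gm44129, Abra (0.945) and Mroh8 (0.887) for Oxr1, and Abra (0.920) and Gm38393 (0.876) for Gm26854. For the third pair 4930415C11Rik ranked 87 among the genes most like Ntrk2, and Ntrk2 ranked 441 for 4930415C11Rik. Ntrk2 was most like Gm47423 (r 0.958), Hectd2os (0.954) and 1700110K17Rik (0.948). Gm47423 is another antisense RNA gene within Ntrk2, on the minus strand at chr13:58824218-58826994, in the first part of the gene. 4930415C11Rik was most like Ap3b2 (0.953), a subunit of a neuronal vesicle adaptor, Rims2 (0.952), an active zone protein, and Cadps (0.952), a factor of dense-core vesicle release.

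The ratio within a pair was taken as noncoding UMIs per 100 host UMIs of the same library and type, in types with at least 100 host UMIs in every library. It is not per length and is compared only between types and libraries. Gm44129 ran from 4.80 ± 1.73 per 100 Thsd7a UMIs in L4/5 IT to 8.74 ± 3.37 in oligodendrocytes over 8 types. Gm26854 ran from 5.71 ± 0.973 per 100 Oxr1 UMIs in microglia to 8.32 ± 3.71 in Vip over 11 types. These ranges of the mean ratio were narrower than those of the host levels. Over the same types mean Thsd7a ran from 26.8 to 931.6 CPM and mean Oxr1 from 362.7 to 1832.5. The ratio of 4930415C11Rik to Ntrk2 was wider, at 2.92 ± 1.22 in astrocytes, 6.89 ± 2.79 in microglia, 7.78 ± 2.21 in OPC and 11.1 ± 6.70 in oligodendrocytes against 11.4 to 16.1 in the 8 neuron types.

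**Figure D3:**
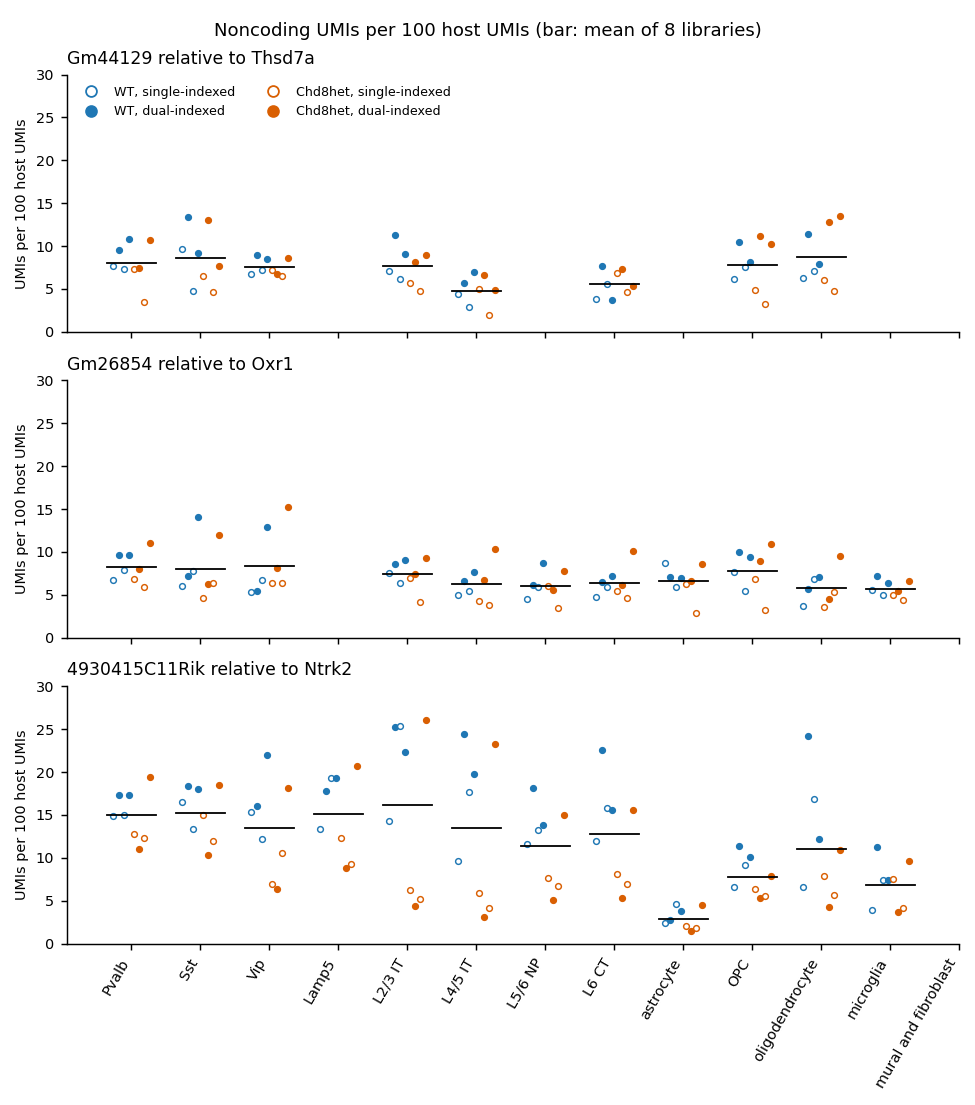
Noncoding UMIs per 100 host UMIs in each cell type, with a point for each library and a bar at the mean of 8. Astrocytes are lowest for 4930415C11Rik (mean 2.92 per 100 Ntrk2 UMIs), and Sst interneurons reach 15.3.

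Each type was compared with the type of highest mean log2 ratio by exact two-sided sign-flip permutation tests with BH adjustment over 28 comparisons. In all, 10 passed, each with the ratio lower in 8 of 8 libraries (p = 0.00781, adjusted p = 0.0219, exact permutation). For 4930415C11Rik the log2 ratio minus that in Sst was -2.47 ± 0.48 (SD) in astrocytes, -1.23 ± 0.45 in microglia, -0.99 ± 0.28 in OPC and -0.51 ± 0.40 in L5/6 NP. In astrocytes the ratio was 2.38, 2.74, 4.59 and 3.83 in WT and 2.08, 1.47, 1.78 and 4.46 in Chd8het, and in Sst it was 16.5, 18.4, 13.4 and 17.97 and 14.995, 10.3, 11.99 and 18.5. The lowest Sst library is above the highest astrocyte library. Gm26854 was lower than in Pvalb in oligodendrocytes (-0.55 ± 0.33), microglia (-0.51 ± 0.16), L5/6 NP (-0.47 ± 0.21), L4/5 IT (-0.43 ± 0.20) and L6 CT (-0.38 ± 0.13). Gm44129 was lower in L4/5 IT than in oligodendrocytes (-0.87 ± 0.50). The type of highest ratio was picked in the same 8 libraries, so that choice set the direction and favoured low p-values. No comparison passed the adjustment with a stricter marker gate, and none when WT male 2 was left out. The astrocyte minus Sst difference was then -2.45 and -2.43. The stricter gate kept fewer Sst nuclei (568 against 663) but more astrocytes (4767 against 4362), as a nucleus must meet the gate of exactly 1 class. The purity of types under that gate was not measured. All 8 libraries remained, so the smallest p was unchanged. Fewer comparisons than the 10 above thus went the same way in 8 of 8 libraries under that gate. With 7 libraries the smallest exact permutation p is 0.0156, and a pass needed 9 comparisons at it, so the calls lost without WT male 2 do not show smaller differences.

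Droplets carry free RNA, so the astrocyte level of 4930415C11Rik was set beside neuronal genes that were picked after their values were seen. In astrocytes 4930415C11Rik stood at 29.1% ± 6.23 of its own mean over neuron types, between Syt1 at 19.6% ± 3.69 and Snap25 at 34.2% ± 6.38, both genes of synaptic vesicle release. Its level in astrocytes is thus within the range of these 2 neuronal genes. Ntrk2 was at 138.3% ± 11.2 and Gm47423 at 260.2% ± 48.0 of their neuron means in the same nuclei. In oligodendrocytes 4930415C11Rik was at 19.8% ± 7.45, and in microglia at 15.03% ± 5.65, where Syt1 was at 22.6% ± 4.90 and 31.8% ± 5.80. In OPC it was at 34.4% ± 7.27, above Syt1 at 21.7% ± 4.59 and below Snap25 at 48.7% ± 5.08. The part of free RNA in these values was not tested.

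Members of a pair were also compared over the 8 libraries within a type, after each genotype was centred on its mean, with exact two-sided permutation within genotype and BH adjustment over the 29 tests. In all, 5 passed and all were Oxr1 with Gm26854. The exact permutation values were r = 0.953 in L4/5 IT, 0.945 in L6 CT and 0.867 in Sst (p = 0.00174, the smallest possible, adjusted p = 0.0168 in each) and 0.893 in L2/3 IT and 0.954 in Vip (p = 0.00694, adjusted p = 0.0403). The permutation takes the libraries as independent. Over all genes, however, matched WT and Chd8het libraries deviated together, by r 0.356 to 0.514 in L4/5 IT and 0.352 to 0.653 in L2/3 IT. These p-values may thus be too low. Spearman's rho was 0.952, 0.857, 0.952, 0.905 and 0.810 in the same 5 types (exact permutation p 0.00174 to 0.0451), and none passed the adjustment by rank (smallest adjusted p = 0.0503, exact permutation). Without the 2 libraries farthest from the median of Oxr1, r was 0.970, 0.883, 0.718, 0.903 and 0.875. Leaving out any 1 library other than Chd8het male 2 left no test past the threshold, while the median r of Gm26854 and Oxr1 stayed at 0.767 to 0.913 with all 11 types above 0. With 7 libraries fewer arrangements are possible and the smallest exact permutation p is above 0.00174. The calls lost in this way do not show weaker correlations.

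Over all types tested, r ran from 0.679 to 0.954 for Gm26854 and Oxr1 in 11 types, from -0.269 to 0.851 for Gm44129 and Thsd7a in 7, and from 0.134 to 0.719 for 4930415C11Rik and Ntrk2 in 11. When the libraries were centred on index type too, none of the 29 passed. Then r ran from -0.365 to 0.908 for Gm26854 (median 0.624 against 0.867 before) and from 0.131 to 0.882 for Gm44129 (median 0.724 against 0.645). For 4930415C11Rik it ran from -0.775 to 0.248 (median -0.174 against 0.44), with 3 of 11 types above 0 against 11 before. In the 5 types named above r of Gm26854 and Oxr1 was 0.709 in L4/5 IT, 0.817 in L6 CT, 0.624 in Sst, 0.620 in L2/3 IT and 0.908 in Vip.

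Dual-indexed libraries held more of the noncoding RNAs, and of Oxr1 and Ntrk2, than single-indexed ones in many types. They were also deeper per nucleus, with medians of 6210 to 7766 UMIs and 2605 to 2914 genes against 5061 to 6115 UMIs and 2220 to 2517.5 genes. Their make-up differed as well, with 335 to 851 L4/5 IT nuclei against 1175 to 1373 and 153 to 385 L5/6 NP nuclei against 87 to 140. The part of depth and make-up in the differences was not tested. In a model of sex, index type and genotype (edgeR quasi-likelihood, BH adjustment within each type, called at adjusted p under 0.05), 40 of 70 tests of a member in a type were called higher in dual-indexed libraries and none lower. Over all genes and the 13 types, 7.2% of 129722 tests were called higher in dual-indexed libraries. The members were chosen by a paired analysis, and the libraries of a pair share an index type. That choice may have favoured genes that differ between index types. The shares over all genes, here and below, are thus no test of the members. Gm26854 was called in 11 of 12 types tested, Gm44129 in 4 of 7, 4930415C11Rik in 8 of 12, Oxr1 in 8 of 13, Ntrk2 in 7 of 13 and Thsd7a in 2 of 13. The median log2 difference, dual minus single, was 0.85, 0.98, 0.72, 0.35, 0.44 and 0.19 in the same order. Without WT male 1 the 40 calls were 21 and without WT male 2 they were 26. The highest difference was 1.39 for 4930415C11Rik in L4/5 IT (SE 0.26, edgeR adjusted p = 0.00633). The index types overlap there. Dual-indexed Chd8het male 2 was at 61.2 CPM, below single-indexed WT male 1 (99.3) and WT female 1 (90.1), and dual-indexed WT male 2 was at 365.0. Levels of 4930415C11Rik overlapped between index types in every type.

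In MGE interneurons the log2 difference was 0.86 for Gm26854 (SE 0.10, edgeR adjusted p = 5.39e-05), 0.73 for Gm44129 (SE 0.11, adjusted p = 0.000415) and 0.54 for 4930415C11Rik (SE 0.09, adjusted p = 0.000891). The host values were smaller: Ntrk2 at 0.34 (SE 0.06, edgeR adjusted p = 0.00113), Oxr1 at 0.30 (SE 0.06, adjusted p = 0.00278) and Thsd7a at 0.02 (SE 0.06, adjusted p = 0.854). No noncoding to host ratio passed between index types in MGE (exact permutation p 0.0286, its smallest, to 0.371, adjusted p 0.0952 to 0.495). With this floor a pass needed most of the ratio comparisons adjusted together to reach it. The adjusted values thus do not show that the ratios are alike. The Thsd7a value pools types of opposite sign. Its mean was 514.1 CPM in single- and 440.3 in dual-indexed libraries in Pvalb, and 803.1 and 1060.0 in Sst, with overlap in both. In CGE interneurons the values were 1.11 for Gm26854, 0.69 for 4930415C11Rik, 0.56 for Gm44129, 0.40 for Oxr1 and 0.32 for Ntrk2, all called, and -0.06 for Thsd7a (SE 0.12, edgeR adjusted p = 0.812). Here too the types differed in sign for Thsd7a. Its mean was 795.7 CPM in single- and 708.8 in dual-indexed libraries in Vip, and 157.3 and 268.7 in Lamp5, with overlap in both. The 5 calls in CGE were 3 without WT male 1, WT female 2 or Chd8het male 2. Over all genes, 3119 of 13378 were called between index types in MGE and 1156 of 10640 in CGE, in either direction. Gm47423 did not move with 4930415C11Rik: it was at -0.12 in MGE (SE 0.09) and -0.17 in CGE (SE 0.13), neither called.

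**Figure D4:**
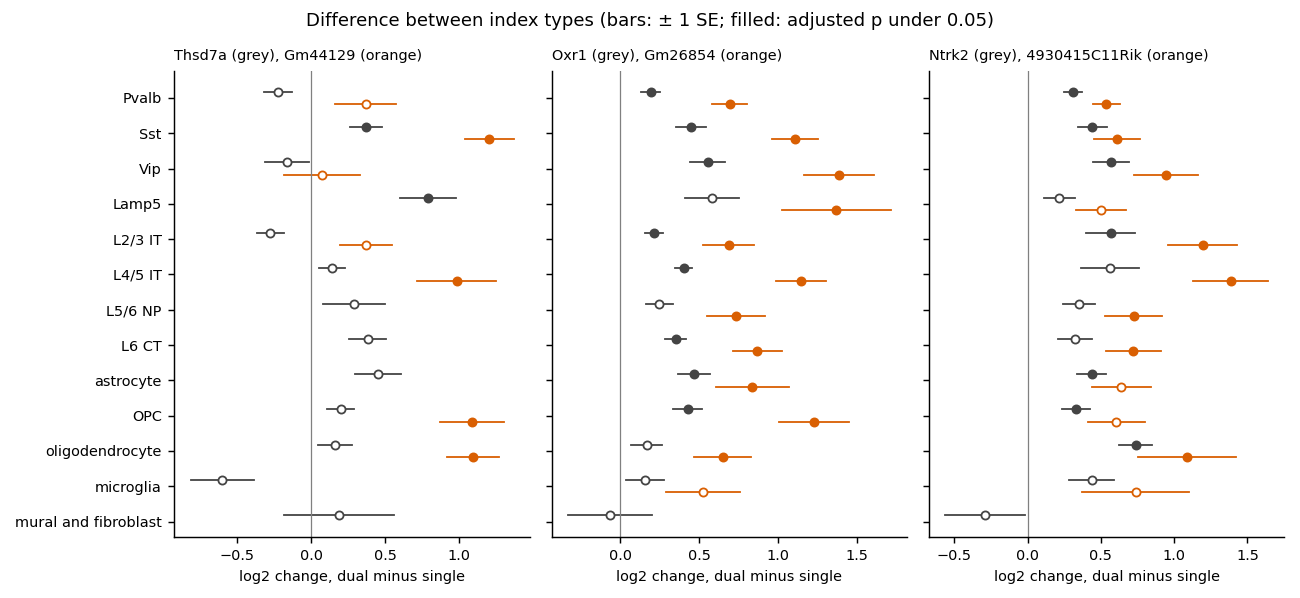
Log2 difference of dual- minus single-indexed libraries for each gene and cell type (edgeR, ±1 SE), with filled points at adjusted p under 0.05. The 3 noncoding RNAs lie above 0 in every type tested, and Thsd7a runs from -0.60 to 0.79 over 13 types.

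Over all kept nuclei every dual-indexed library was above every single-indexed one for Gm44129, Oxr1 and Gm26854, as for 15.8% of 21487 genes. Gm26854 stood at 56.5, 61.9, 50.8 and 39.3 CPM in the single-indexed WT male, WT female, Chd8het male and Chd8het female libraries and at 84.2, 106.9, 66.1 and 114.4 CPM in their dual-indexed counterparts. Gm44129 stood at 12.3, 9.13, 9.71 and 5.53 CPM against 16.5, 16.2, 13.04 and 13.3 CPM. Each dual-indexed value is above all 4 single-indexed values. The mean log2 ratio to the host was higher in dual-indexed libraries by 0.77 for Gm44129 (0.59 within WT and 0.95 within Chd8het) and 0.55 for Gm26854 (0.34 and 0.75). Each was without overlap (p = 0.0286, the smallest that an exact permutation of 4 against 4 can give, BH adjusted p = 0.0952). For 4930415C11Rik the difference was 0.47 (0.42 and 0.53), with overlap (exact permutation, adjusted p = 0.536). None of the 3 passed the adjustment, but a pass needed most of the ratio comparisons at that smallest p, so this does not show like ratios. A higher ratio in every dual-indexed library was found in 510 of 1235 overlapping pairs (41.3%), and a lower one in 71 (5.75%), with a median log2 difference of 0.41. A higher ratio in every dual-indexed library is thus common among overlapping pairs in these libraries. Index type is also the replicate number, so index type, litter and any other step shared by a replicate number cannot be told apart.

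Sex gave no call among the members (0 of 70 tests, against 0.0563% of 129722 tests over all genes, edgeR). At an unadjusted p under 0.05, Ntrk2 was higher in males in L4/5 IT (log2 0.98, SE 0.28, edgeR adjusted p = 0.93), L2/3 IT (0.80, SE 0.26, adjusted p = 0.953) and L6 CT (0.65, SE 0.17, adjusted p = 0.874). Gm26854 was lower in males in Vip (-1.31, SE 0.39, edgeR adjusted p = 0.998) and Sst (-0.94, SE 0.31, adjusted p = 1). None of these passed the adjustment. Without the filter on low counts 6 member tests passed, of 518 over all genes (edgeR): Ntrk2 in oligodendrocytes, L4/5 IT and L6 CT, and Gm26854 in oligodendrocytes, Sst and Vip. In oligodendrocytes that was 2 of 6 members, against 40 of 23495 genes (0.17%). In astrocytes it was 0 of 6 members, against 30 of 23326 genes (0.129%).

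Detection in the same nucleus was measured after each nucleus was thinned to 2000 UMIs, and compared in 22 combinations of pair and type by exact two-sided sign-flip permutation tests with BH adjustment. Of these 12 passed. Among Pvalb nuclei with a Thsd7a UMI, 12.9% ± 5.02 (n = 8 libraries) had a Gm44129 UMI, against 2.53% ± 2.18 of those without, a difference of 10.4 points in 8 of 8 libraries (p = 0.00781, adjusted p = 0.0191, exact permutation). Gm44129 passed in 6 of 7 types, and in L6 CT, the type lowest for both genes, the shares were 0.80% (2 of 264 nuclei summed) and 0.17% (9 of 5490). Gm26854 passed in 5 of 7 types, with L6 CT at 14.9% ± 4.78 with an Oxr1 UMI and 8.74% ± 2.87 without. L4/5 IT and L5/6 NP did not pass for it. Without nuclei of high UMI count Gm26854 passed in 3 types and Gm44129 in 5, with all 7 types of each still higher with a host UMI. At 4000 UMIs per nucleus they passed in 6 and 4.

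For 4930415C11Rik only oligodendrocytes passed, at 4.74% ± 2.92 with an Ntrk2 UMI and 2.03% ± 0.866 without. Both genes were low in this type, with Ntrk2 at 26.0% ± 4.26 and 4930415C11Rik at 19.8% ± 7.45 of their neuron means. Syt1 was at 22.6% ± 4.90 and Snap25 at 35.4% ± 5.56 there. The part of free RNA in the oligodendrocyte difference was not tested. In astrocytes the shares with and without an Ntrk2 UMI were 6.52% ± 2.31 and 6.47% ± 3.53 (p = 0.969, exact permutation), a difference of 0.05 ± 3.13 points. At 4000 UMIs per nucleus 3 of 7 types passed for this pair, and the differences over all 7 were 5.86 to 11.97 points. With 2000 UMIs the lowest type was at -1.74 points under the stricter gate, -0.80 under the stricter filter and -2.75 without nuclei of high UMI count. At 2000 UMIs, in the 5 neuron types, the share was 2.93 to 5.16 points higher with an Ntrk2 UMI, in 4 to 6 of 8 libraries, and none passed. Thinning left out 1028 of 4362 astrocytes, 648 of 4111 oligodendrocytes and 3 of 2207 Pvalb nuclei as too shallow. Without thinning 20 of 21 passed.

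The genotype values chose the pairs and are given as a description. In MGE interneurons Thsd7a was at 789.8, 760.8, 628.7 and 731.2 CPM in WT and at 577.1, 589.3, 585.9 and 542.0 CPM in Chd8het. The highest Chd8het library lies below the lowest WT library, as for 0.733% of 13378 genes in MGE. In sums of this kind fewer nuclei of a subtype and less RNA per nucleus cannot be told apart. Within the 2 gated MGE types the genotypes overlap, at 457.4 to 647.3 CPM in WT and 348.7 to 507.4 in Chd8het in Pvalb (log2 -0.28, SE 0.14) and at 737.3 to 1372.6 and 788.4 to 973.3 in Sst (log2 -0.26, SE 0.16). Over all kept nuclei Thsd7a did not overlap between genotypes either (175.1 to 192.3 CPM in WT and 148.2 to 161.8 in Chd8het), as for 0.67% of 21487 genes. Gm44129 in MGE was at 63.0, 83.2, 40.7 and 72.2 CPM in WT and 39.0, 56.7, 22.2 and 54.4 CPM in Chd8het, so the groups overlap and each Chd8het library is below the WT library of its sex and number.

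Oxr1 in MGE was at 1709.1, 2118.7, 1626.9 and 2376.6 CPM in WT and 1491.7, 1606.3, 1580.0 and 1859.8 CPM in Chd8het. Gm26854 was at 111.7, 195.2, 136.8 and 257.0 CPM and at 89.6, 119.6, 89.3 and 217.0 CPM. Both were lower in Chd8het in 4 of 4 pairs and overlap between genotypes. Within each genotype and sex the dual-indexed library was the higher one for both. The log2 changes in MGE, Chd8het minus WT, were -0.34 (SE 0.08) for Thsd7a, -0.59 (SE 0.27) for Gm44129, -0.26 (SE 0.13) for Oxr1 and -0.46 (SE 0.29) for Gm26854. With a replicate block, that is, a term for each matched pair, they were -0.34 (SE 0.06), -0.60 (SE 0.09), -0.25 (SE 0.06) and -0.47 (SE 0.08). A paired analysis chose these genes, so the size and the errors of the paired values were part of the choice and support nothing. Without Chd8het female 2 the change was -0.88 for Gm44129 and -0.78 for Gm26854, and leaving out Chd8het female 1 gave -0.39 and -0.26. Leaving out WT female 2 gave -0.15 for Oxr1 and -0.27 for Gm26854, and leaving out WT male 2 gave -0.26 for Gm26854.

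4930415C11Rik in CGE interneurons was at 141.3, 239.6, 122.5 and 214.2 CPM in WT and 98.8, 116.0, 84.7 and 159.8 CPM in Chd8het (log2 -0.65, SE 0.23, and -0.64, SE 0.11, with the replicate block). In L2/3 IT neurons it was at 110.9, 277.8, 105.8 and 187.6 CPM in WT and 47.6, 60.7, 29.5 and 128.6 CPM in Chd8het (log2 -1.37, SE 0.48, and -1.44, SE 0.23, with the block). In L4/5 IT it was at 99.3, 365.0, 90.1 and 200.8 CPM and at 57.7, 61.2, 30.2 and 124.6 CPM (log2 -1.43, SE 0.54), and WT male 2 is far above the other libraries. In each of these types 3 of the 4 Chd8het libraries lie below all WT libraries, and Chd8het female 2 lies within the WT range. Without WT male 2 the change was -0.44 in CGE, -0.95 in L2/3 IT and -0.84 in L4/5 IT, and leaving out Chd8het female 2 gave -0.90, -2.02 and -2.08. The mean log2 change of Ntrk2 was 0.01 (SE 0.14) in CGE, -0.02 (SE 0.26) in L2/3 IT and -0.03 (SE 0.28) in L4/5 IT, but the matched pairs went both ways. In L4/5 IT Ntrk2 was at 1036.9, 1494.6, 510.2 and 1013.2 CPM in WT and 974.6, 1978.0, 720.1 and 535.9 CPM in Chd8het, higher in Chd8het in 2 pairs and lower in 2. In L2/3 IT it was higher in 2 pairs and lower in 2 as well, so the means near 0 do not show that the host was alike in the genotypes.

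**Figure D5:**
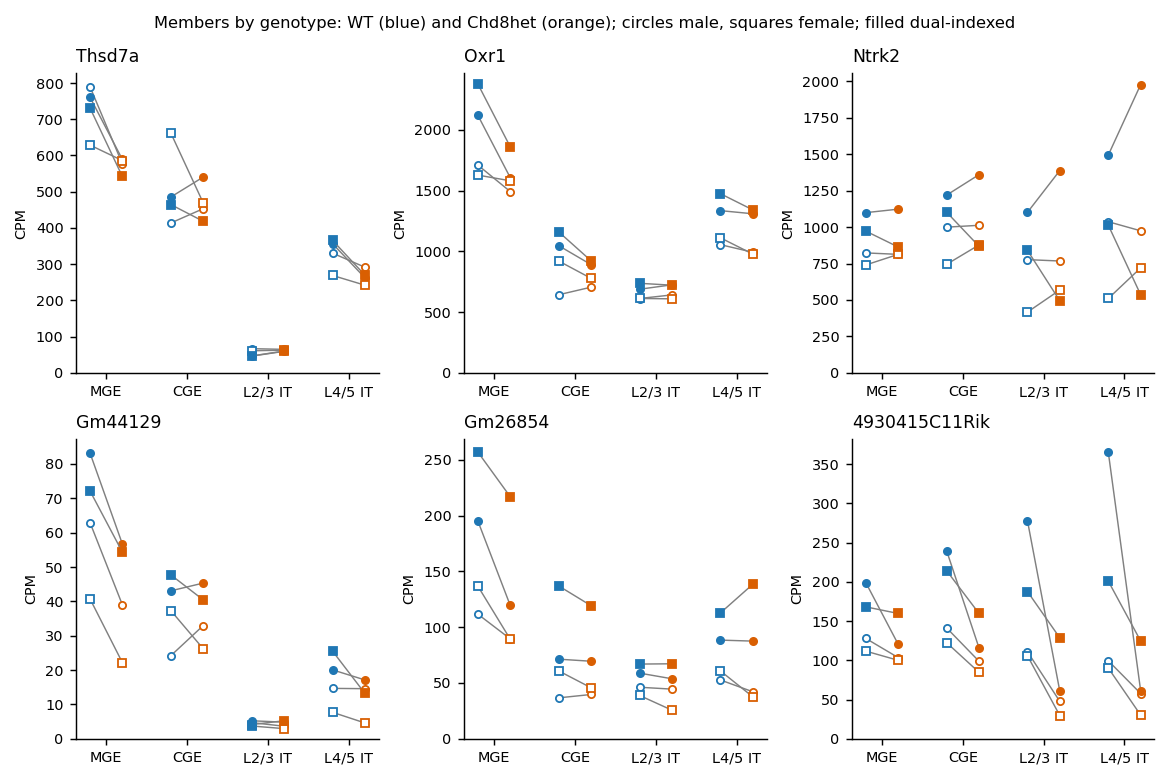
Level of each gene (CPM) in WT (blue) and Chd8het (orange) libraries of MGE, CGE, L2/3 IT and L4/5 IT, with matched libraries joined, circles for males, squares for females and filled symbols for dual index. Thsd7a in MGE does not overlap between genotypes, and 4930415C11Rik is lower in the Chd8het library of 4 of 4 pairs in all 4 units.

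The ratio of 4930415C11Rik to Ntrk2 in L2/3 IT was 14.3, 25.2, 25.4 and 22.3 per 100 UMIs in WT and 6.21, 4.37, 5.21 and 26.0 in Chd8het. In L4/5 IT it was 9.58, 24.4, 17.7 and 19.8 in WT and 5.92, 3.10, 4.20 and 23.3 in Chd8het. The Chd8het female 2 library is thus the highest of the 8 in L2/3 IT and below only WT male 2 in L4/5 IT. The other 3 Chd8het libraries are below all WT libraries in both types. Over the types tested 4930415C11Rik was below 0 in 12 of 12 (median log2 -0.68), Gm26854 in 12 of 12 (-0.17), Gm44129 in 6 of 7 (-0.43), Oxr1 in 10 of 13 (-0.11), Thsd7a in 7 of 13 (-0.04) and Ntrk2 in 4 of 13 (0.03), and these contrasts share their libraries. The highest value was 0.77 for Ntrk2 in mural and fibroblast cells. Its levels there were 153.9 to 162.0 CPM in WT and 165.3 to 416.9 in Chd8het, with 11 UMIs in the lowest library. Gm47423, the other RNA antisense to Ntrk2, had values of the opposite sign (log2 0.59, SE 0.15, in CGE and 0.80, SE 0.30, in L2/3 IT) and passed in neither (edgeR adjusted p = 1 in each).

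Over all genes, 0% of 129722 tests in the 13 types were called between genotypes in a model of sex and genotype (edgeR), as were 0% in MGE and 0% in CGE. At an unadjusted p under 0.05 there were 263 of 13378 genes in MGE and 284 of 10640 in CGE, and DESeq2 called 0 and 1. With the replicate block edgeR called 30 of 129722 tests (0.0231%) over the 13 types, 1 gene in CGE (0.0094%) and 0 in MGE (0%).

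Genes of the hosts' pathways were taken from lists without the hosts. No gene of the neurotrophin list (ligands, receptors and adaptors, 18 of 21 tested in MGE and 14 in CGE), the list of TLDc and oxidative stress genes (23 and 19 of 27) or the thrombospondin repeat list (18 and 16 of 26) was called between genotypes in edgeR's fit of sex and genotype. Their median log2 changes were 0.01, -0.05 and 0.06 in MGE and -0.05, 0.09 and -0.003 in CGE, where all genes had 0.002. By the rule of an unadjusted p under 0.01, only thrombospondin repeat genes were named. Unc5d, a netrin receptor, was at 0.79 in microglia (SE 0.15), 0.74 in OPC (SE 0.20), 0.86 in mural and fibroblast cells (SE 0.28) and 0.63 in L6 CT (SE 0.19). Unc5c, another netrin receptor, was at 0.54 in Sst (SE 0.15). Adamts3, a procollagen-processing protease, was at -1.25 in Lamp5 (SE 0.35) and -0.66 in CGE (SE 0.17). None of these values passed the adjustment (edgeR adjusted p 0.998 to 1). With the replicate block Unc5d was called in OPC (edgeR adjusted p = 0.00995) and Adamts2, a related procollagen protease, in L5/6 NP (adjusted p = 0.0141), each 1 of 16 thrombospondin repeat genes tested there. Over all genes the block called 17 of 9174 in OPC (0.185%) and 5 of 10239 in L5/6 NP (0.0488%), and OPC thus holds 17 of the 30 calls over the 13 types.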

How the data were processed

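The authors' deposited files held whole-number UMI counts per gene and barcode for 8 libraries. Per the submitters' processing notes, mm10, STAR 2.7.9a, STARsolo and Cell Ranger were named, without their roles. Use of strand and of intron reads was not given in the sources used here. Nuclei with at least 500 genes and at most 5% mitochondrial UMIs were kept. Each was typed by its own UMIs of marker genes, and nuclei that met the gates of more than 1 class were left out; no doublet caller was run. Thresholds were set on markers alone. Counts were summed per library and type, genes were kept at a minimum count of 10, and sums were TMM-scaled and tested with edgeR 4.0.16 (quasi-likelihood, BH within a type), with DESeq2 1.42.0 as an alternative. SE came from the F statistic. Log2 levels used a pseudocount of 1 CPM and ratios 0.5 UMI. The fits were checked on simulated counts. GENCODE M21 matched 32158 of 32285 gene IDs.

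The members and lists were chosen with earlier results of these data known. Named genes were the 6 members, the 3 genes most like each of them over types, and listed pathway genes at an unadjusted p under 0.01. The labels describe pairs matched for litter and sex without naming them, and libraries of the same sex and number were taken as pairs. Their deviations correlated in every unit (r 0.064 to 0.653), and those of the same index type but other sex by 0.004 to 0.417. The 2 libraries of a group differed by more than sampling noise (chi-square per degree of freedom 73.6 to 151.9). Alternatives were other scalings, filters, gates, models and each library left out.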

Additional observations from a re-analysis of the deposited data

Results flagged for a closer look

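In 250 groups of 4 libraries of 1 genotype, a library far from the other 3 was seen in 12, near the rate of 1 in 20 that chance gives. Values follow in CPM with the range of the other 3 libraries. Thsd7a was at 973.3 in Sst of Chd8het male 2 (others 788.4 to 818.1) and at 1130 in Vip of WT female 1 (689.8 to 742.7). Oxr1 was at 395.3 in mural and fibroblast cells of WT female 1 (209.9 to 241.5) and at 1859.2 in Pvalb of Chd8het female 2 (1512 to 1546.1). Gm26854 in Vip was at 236.4 in WT female 2 (43.1 to 73.1) and at 231.7 in Chd8het female 2 (47.6 to 79.0). Ntrk2 was at 1123.1 in MGE of Chd8het male 2 (812.7 to 863.8).

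Chd8het female 2 was the high library for 4930415C11Rik in 5 groups. In CPM it was at 53.3 in astrocytes (others 18.8 to 24.6) and 96.1 in L5/6 NP (47.3 to 54.9). Per 100 Ntrk2 UMIs it was at 26.0 in L2/3 IT (4.37 to 6.21), 23.3 in L4/5 IT (3.10 to 5.92) and 18.4 in CGE (8.55 to 9.80).

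In CGE the 2 male and the 2 female pairs differed between genotypes in opposite directions for the first pair of genes, and the difference between sexes was not tested. Chd8het minus WT was 47.2 CPM in males and -119.25 CPM in females for Thsd7a, and 5.50 and -9.18 CPM for Gm44129.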

How the results depend on the processing

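The limits are 8 libraries, low UMIs (0 for each noncoding RNA in mural and fibroblast cells of some libraries and for Gm44129 in microglia, 1 for Gm44129 in L5/6 NP and Lamp5), and an index type that equals the replicate number. Over the 13 types together, genes called between genotypes went from 0 to 9 with index type added, 30 with the replicate block (pairs), 5 by the DESeq2 Wald test, 87 without the count filter and 0 to 1 without single libraries. In MGE they went from 0 to 5 without the filter, and in CGE from 0 to 1 with index type added, 1 with the block, 1 by DESeq2, 6 without the filter and 0 to 1 without single libraries. Calls of the members are not given, since this contrast chose them. With the block 2 of their changes near 0 turned (Gm26854 in Vip from -0.006 to 0.019, Ntrk2 in L2/3 IT from -0.022 to 0.002). Without the filter sex calls went from 73 to 518 and member calls from 0 to 6, and in CGE Gm26854 passed too. Leaving out single libraries moved the 17011 index calls to 8589 to 17607, the members' 40 to 21 to 38, MGE's 3119 to 2043 to 3018, CGE's 1156 to 602 to 1052 and its 5 member calls to 3 to 5. Thsd7a's index difference changed sign without single libraries, running from -0.043 to 0.07 in MGE (0.019 with all) and from -0.191 to 0.133 in CGE (-0.056 with all). Steps in the order of types past the threshold went from 0 to 12 with the strict gate and 12 without nuclei of high UMI count. The 10 ratio differences were 0 with the strict gate and 0 to 11 without single libraries. The 5 correlations were 0 when also centred on index type, 3 on raw values and 0 to 5 without single libraries. The 12 differences in shared detection were 20 without thinning, 10 without nuclei of high UMI count and 9 to 11 without single libraries. The causes were not tested. Of single members, 11 genotype values in MGE, CGE or all nuclei moved by more than their spread, each without 1 library. In CGE the index differences of Gm44129 and Ntrk2 no longer passed in 10 fits, each without 1 library. In other types the index differences of single members are covered only by the counts above.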
